A study of Mus musculus with 16 samples.

Results

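Cyr61 (Ccn1) and CTGF (Ccn2), the founding CCN proteins, are secreted into the extracellular matrix and bind integrins, and together with thrombospondin 1 (Thbs1), heparin-binding EGF-like growth factor (Hbegf), endothelin 1 (Edn1) and Ankrd1 they form a group of genes that serum or stretch can induce. Their signals were examined in lungs of T1α(-/-) and T1α(+/+) mice. The members were named by gene and were chosen by a rule that used their signals in all 4 groups, so their own values are given as a description, with no test. A probe set was taken where the platform annotation gives it 1 symbol and that symbol is a member. The rule found 5 of the 6 named genes, measured by 6 probe sets, among 8252 genes on the array. Edn1 has 2 of these probe sets and the other genes 1 each. The probe set annotated to Thbs1 also carries a second symbol, so no value of Thbs1 is given.

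T1α (podoplanin, Pdpn) is a membrane protein of type I alveolar epithelial cells, and pups without it die at birth because they cannot expand their lungs. Whole lung RNA was hybridised to 16 Affymetrix Murine Genome U74Av2 arrays, 3 of T1α(-/-) lungs at term (replicates F, G and H), 3 of T1α(+/+) lungs at term (N, O and P), 5 of T1α(-/-) lungs at E18.5 (A to E) and 5 of T1α(+/+) lungs at E18.5 (I to M). The null allele is constitutive, so every cell of the animal lacks T1α, the litters came from heterozygous parents, and the term pups were taken within minutes of natural delivery. The values are Microarray Suite 5.0 signals, a linear brightness per probe set that cannot be compared between genes. In whole lung, fewer cells of a type and less RNA per cell cannot be told apart.

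Many of these genes respond within minutes to hours to growth factors or to mechanical load. YAP and TAZ, the effectors of the Hippo pathway, act with TEAD factors at CCN promoters, serum response factor (SRF) acts at CArG boxes, and AP-1 and CREB proteins act at sites of their own. In the lung, CCN proteins are best known from matrix remodelling and fibrosis, endothelin 1 as a vasoconstrictor made by endothelium, and HB-EGF as a ligand of the EGF receptor. Ankrd1 is the exception, since its protein is not secreted but sits in the nucleus and the sarcomere, and it is abundant in heart muscle.

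The promoters of the members are shown because Ccn1, Ccn2 and Ankrd1 are textbook YAP and TEAD targets. RefSeq sequence of GRCm38.p6 was on hand for 3 of the 6 named genes, and those of Ccn2, Thbs1 and Hbegf are not shown. Each run below is the 250 bases before the annotated start, written 5′ to 3′ on the strand of the gene, with capitals where GGAATG (the TEAD core, either strand) or TGACGT (the core of a CRE, either strand) occurs. The Ccn1 stretch lies on the minus strand at chr3:145649986-145650235, the Edn1 stretch on the plus strand at chr13:42301226-42301475, and the Ankrd1 stretch on the minus strand at chr19:36119845-36120094.
Ccn1: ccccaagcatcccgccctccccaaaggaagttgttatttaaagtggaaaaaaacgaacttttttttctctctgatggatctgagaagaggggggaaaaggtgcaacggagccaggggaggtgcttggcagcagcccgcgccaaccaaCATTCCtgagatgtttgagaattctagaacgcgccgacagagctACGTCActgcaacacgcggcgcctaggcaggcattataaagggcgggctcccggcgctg
Edn1: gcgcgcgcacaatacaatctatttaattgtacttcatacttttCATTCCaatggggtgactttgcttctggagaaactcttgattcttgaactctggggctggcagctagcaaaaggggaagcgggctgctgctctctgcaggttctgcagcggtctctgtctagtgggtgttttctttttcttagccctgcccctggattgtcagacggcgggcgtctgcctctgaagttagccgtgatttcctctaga
Ankrd1: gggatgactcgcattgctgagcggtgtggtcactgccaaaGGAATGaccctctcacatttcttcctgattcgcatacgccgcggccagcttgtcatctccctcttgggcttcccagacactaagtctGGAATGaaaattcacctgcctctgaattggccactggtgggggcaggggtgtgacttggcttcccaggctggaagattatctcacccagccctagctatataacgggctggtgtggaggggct
The TEAD letters occur once in the Ccn1 stretch, 98 to 103 bases before the start, once in the Edn1 stretch, 202 to 207 bases before it, and 2 times in the Ankrd1 stretch, 118 to 123 and 205 to 210 bases before it. Of all 32851 such stretches in the table, 12.6% hold these letters. The CRE letters occur only in the Ccn1 stretch among these 3, 54 to 59 bases before the start, and in 6.47% of all stretches. Neither TGANTCA, the AP-1 site, nor the CArG box was found in the 3 stretches, and they occur in 6.75% and 1.47% of all stretches. A match is a description of the letters and not a measured binding site, and no match says nothing about the factor.

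T1α itself had signals of 8.6 to 30 on term (-/-) arrays against 39.7 to 214.9 on term (+/+) arrays, and of 1.4 to 21.2 on E18.5 (-/-) arrays against 60.2 to 135.5 on E18.5 (+/+) arrays. Every (-/-) array thus lay below every (+/+) array of its time. At term the nearest signals, 30 and 39.7, both lay under the low-signal filter of 47.7, so the margin there is small. Sftpc, the surfactant protein of type II alveolar cells, had 5027.3 or more on every term (-/-) array, 5202.9 or more on every term (+/+) array, 12642.4 or more on every E18.5 (-/-) array and 9662.2 or more on every E18.5 (+/+) array. Of the other marker lists, heart and skeletal muscle stood out. The summed signal of 13 heart muscle genes was above 5000 on 1 array of each group, at 14287.6 on term (-/-) replicate F, 6952.7 on term (+/+) replicate O, 8427.5 on E18.5 (-/-) replicate E and 23503.1 on E18.5 (+/+) replicate M, and it was 4346.1 or less on the other 12. The summed signal of 9 skeletal muscle genes was 3321.2 on term (+/+) replicate P and 974.6 on term (+/+) replicate O, and 537.4 or less on the other arrays. The 3′ to 5′ signal ratio of GAPDH, a measure of RNA integrity, ran from 0.827 to 2.63 on term (-/-) arrays, from 0.853 to 2.55 on term (+/+) arrays and from 0.962 to 1.72 at E18.5. The part of muscle tissue and RNA quality in the members' values was not tested beyond the alternatives given with the results.

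Ccn1 was the member that set the genotypes apart. At term its signal (probe set 92777_at) was 145, 232.2 and 234.7 on the (-/-) arrays F, G and H, against 548.9, 613.9 and 520.8 on the (+/+) arrays N, O and P. Every (-/-) lung lay below every (+/+) lung, and the highest (-/-) signal was less than any (+/+) signal by more than the range of either group. The means were 204 ± 51.1 in (-/-) and 561.2 ± 47.8 in (+/+) lungs (SD, n = 3 each), 2.75-fold lower in (-/-). On the scale of log2(signal + 16) used for all fits, the difference was -1.42 with a standard error of 0.26. At E18.5 its signal was 28.6, 24.7, 22.3, 16.8 and 22.8 on (-/-) arrays A to E, against 27.2, 45.7, 47.6, 25.3 and 30.9 on (+/+) arrays I to M. Here 4 of the 5 (-/-) signals lay below every (+/+) signal, and replicate A overlapped the (+/+) range. These E18.5 signals averaged 23 ± 4.28 in (-/-) and 35.3 ± 10.5 in (+/+) lungs (SD, n = 5 each), under the low-signal filter of 53.4 for that comparison, so that the difference of -0.38 ± 0.24 (log2 scale, SE) comes from a fit without the filter.

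For Ccn1 every term lung was above every E18.5 lung of its genotype. The log2 changes from E18.5 to term were 2.47 ± 0.22 in (-/-) and 3.51 ± 0.25 in (+/+) lungs (SE). Both E18.5 means lie under the filter level, so the size of the change is set in part by the pseudocount, and it ran from 1.60 to 3.15 in (-/-) and from 2.66 to 4.04 in (+/+) lungs over the pseudocounts and the ratio of means. The genotype effect at term minus that at E18.5, which is the same quantity as the change over time in (-/-) minus that in (+/+), was -1.04 ± 0.31 on the log2 scale (SE). Among the levels term (+/+) was highest and term (-/-) next, and the E18.5 groups, which overlapped and lay under the filter level, are given no order. Ccn1 passed the low-signal filter only through its term groups. These are mRNA signals from 1 probe set, and neither Ccn1 protein nor another RNA assay is analysed here. Without the 4 arrays rich in heart muscle signal the term difference between the genotypes was -1.14, against -1.42 with them. Ccn1 was 548.9 on the (+/+) replicate N, whose skeletal muscle sum was 193.2, and 613.9 and 520.8 on the (+/+) replicates O and P, whose sums were high.

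**Figure D1:**
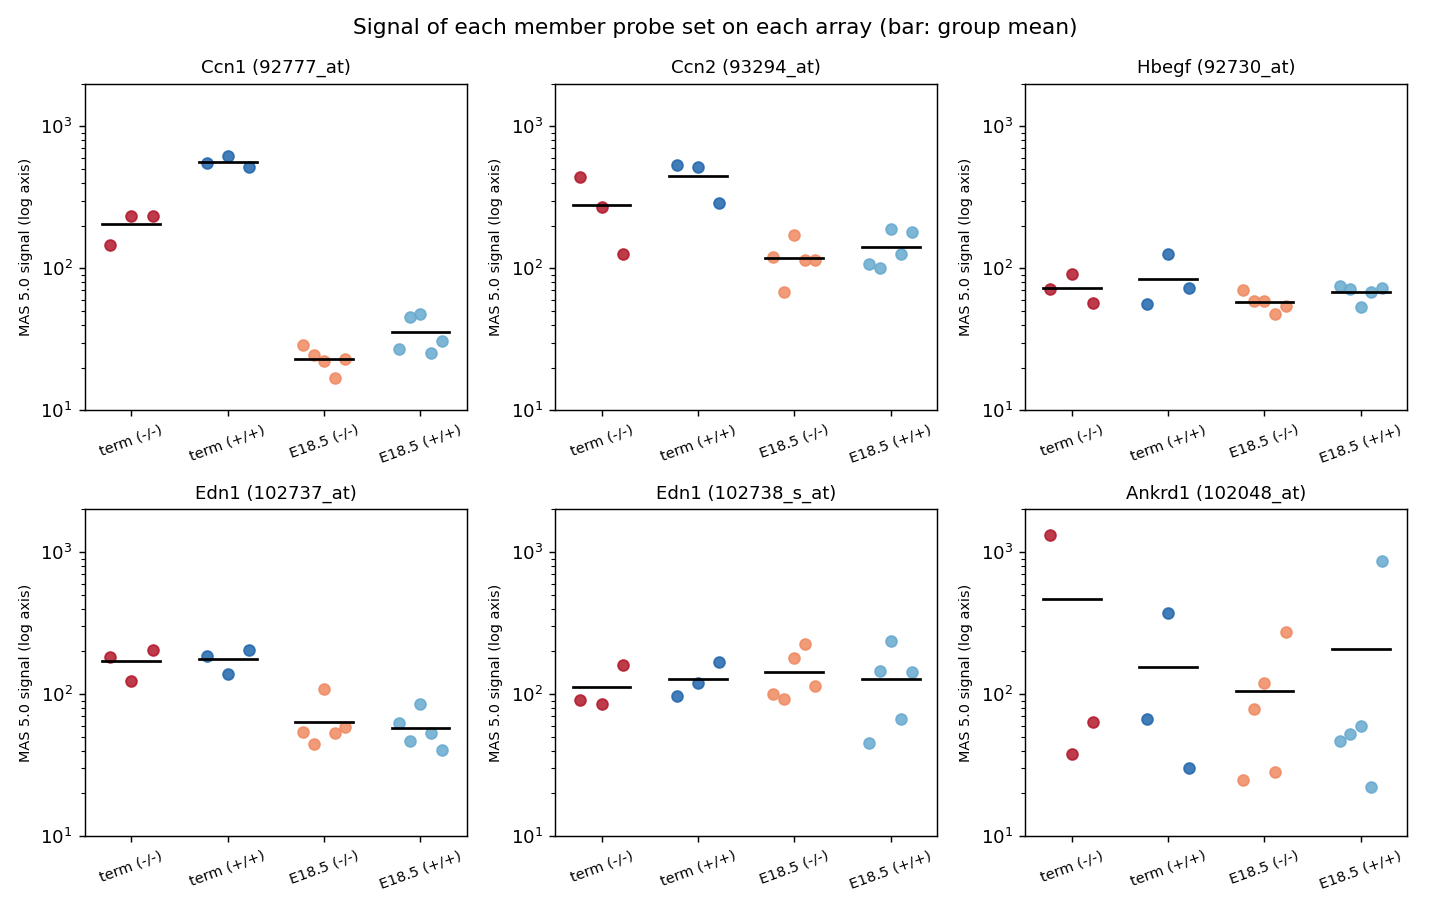
Signal of each of the 6 probe sets on each of the 16 arrays, on log axes, for term (-/-), term (+/+), E18.5 (-/-) and E18.5 (+/+) lungs, with a bar at the group mean. The 3 term (-/-) points of Ccn1 lie between 145 and 234.7 and the 3 term (+/+) points between 520.8 and 613.9, while the genotypes overlap for the other probe sets.

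Ccn2, the closest relative of Ccn1 among the members, was spread more widely. Its signal (93294_at) was 440.5, 270.2 and 125.6 on the term (-/-) arrays against 530.8, 519 and 289.8 on the term (+/+) arrays. The (-/-) replicate F lay above the lowest (+/+) lung, so the groups overlapped. The difference at term was -0.76 ± 0.42 (log2 scale, SE), with means of 278.8 ± 158 in (-/-) and 446.5 ± 136 in (+/+) lungs (SD, n = 3 each). At E18.5 the signals were 119.6, 67.9, 170.3, 115 and 115.1 on the (-/-) arrays against 107.5, 100.9, 190.1, 126.9 and 179.4 on the (+/+) arrays. The genotypes overlapped there as well, with a difference of -0.24 ± 0.24. From E18.5 to term Ccn2 was higher by 1.03 ± 0.34 in (-/-) lungs, where replicate H fell within the E18.5 range, and by 1.55 ± 0.29 in (+/+) lungs, where the 3 term arrays lay above all 5 E18.5 arrays. The genotype difference at term was -1.15 without the (-/-) replicate F and -0.31 without the (-/-) replicate H, so single lungs set its size.

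Edn1, the precursor of the vasoconstrictor endothelin 1, gave a different answer from each of its probe sets. On 102737_at the term signals were 181.3, 124.2 and 203.9 in (-/-) against 184.1, 139.4 and 203.4 in (+/+) lungs. The genotypes covered nearly the same range, and the difference was -0.06 ± 0.26 (log2 scale, SE). At E18.5 this probe set had 54.2, 44.3, 107.9, 52.8 and 58.5 in (-/-) against 62.1, 46.6, 85.6, 53.2 and 40.5 in (+/+) lungs, a difference of 0.09 ± 0.25. Every term lung was above every E18.5 lung of its genotype. The change from E18.5 to term was 1.25 ± 0.25 in (-/-) and 1.40 ± 0.26 in (+/+) lungs, and the difference between the genotype effects was -0.15 ± 0.36. On 102738_s_at the term signals were 90.6, 85.1 and 159.7 in (-/-) against 97, 119.1 and 168.9 in (+/+) lungs. The E18.5 signals of this probe set were 99.8, 93, 180.4, 227 and 113.6 in (-/-) against 45.5, 144.5, 237.4, 66.3 and 142.8 in (+/+) lungs. All 4 groups overlapped here, and the change over time was -0.29 ± 0.29 in (-/-) and 0.16 ± 0.38 in (+/+) lungs. The suffix of 102738_s_at marks a probe set that can detect more than 1 transcript, and the Pearson correlation of the log2 signals of the Edn1 probe sets over the 16 arrays was 0.11. The higher term signal of Edn1 was thus seen on 1 of its 2 probe sets. The summed signal of 8 endothelial markers, which include Pecam1, Cdh5 and Kdr, was 3520.9 to 3801.5 in term (-/-) and 2882.4 to 3437.8 in term (+/+) lungs, against 2004.4 to 3350.2 in E18.5 (-/-) and 1737.9 to 2982.7 in E18.5 (+/+) lungs, and its part in the Edn1 signal was not tested.

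Hbegf, whose membrane-bound precursor is shed to give a ligand of the EGF receptor, changed little across the study. Its signal (92730_at) was 71.1, 91.6 and 56.8 in term (-/-) against 56, 125.3 and 72.8 in term (+/+) lungs. At E18.5 it was 69.8, 58.4, 58.5, 47.4 and 54 in (-/-) against 75.5, 71.5, 53.5, 67.9 and 73.2 in (+/+) lungs. All groups overlapped, and no fitted difference of Hbegf was larger than 0.27 on the log2 scale, the change from E18.5 to term in (-/-) lungs (SE 0.21). The genotype difference was -0.14 ± 0.28 at term and -0.20 ± 0.19 at E18.5.

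Ankrd1, a stress-responsive protein of cardiac muscle, varied more between lungs of 1 group than between groups. Its signal (102048_at) was 1309.7, 38 and 63.7 in term (-/-) against 66.4, 370.5 and 30.1 in term (+/+) lungs. At E18.5 it was 24.9, 78.3, 119.1, 28.2 and 274.9 in (-/-) against 46.5, 52.2, 60, 22 and 859.4 in (+/+) lungs. In each group 1 lung stood well above the rest, and no pair of groups was separated. These lungs were F, O, E and M, the same 4 arrays whose heart muscle marker sum was above 5000, and the next highest Ankrd1 signal, 119.1 on replicate C, came with the next highest sum, 4346.1. The genotype difference was 0.65 ± 1.11 at term and -0.14 ± 0.70 at E18.5, and without those 4 arrays it was 0.09 at term and 0.23 at E18.5. Without replicate F alone the term difference was -0.79. The 3 genes on the array with the pattern most like Ankrd1 were Myh6, Tnni3 and Actc1, which encode cardiac myosin heavy chain, troponin I and actin, with Pearson correlations of 0.938, 0.930 and 0.915 over the 16 arrays. The Spearman correlations of these 3 genes with Ankrd1 were 0.838, 0.685 and 0.665. With the heart muscle marker sum, the log2 signal of Ankrd1 had a Pearson correlation of 0.92 and a Spearman correlation of 0.56 over the 16 arrays. What part heart muscle tissue has in the Ankrd1 values was not tested.

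**Figure D2:**
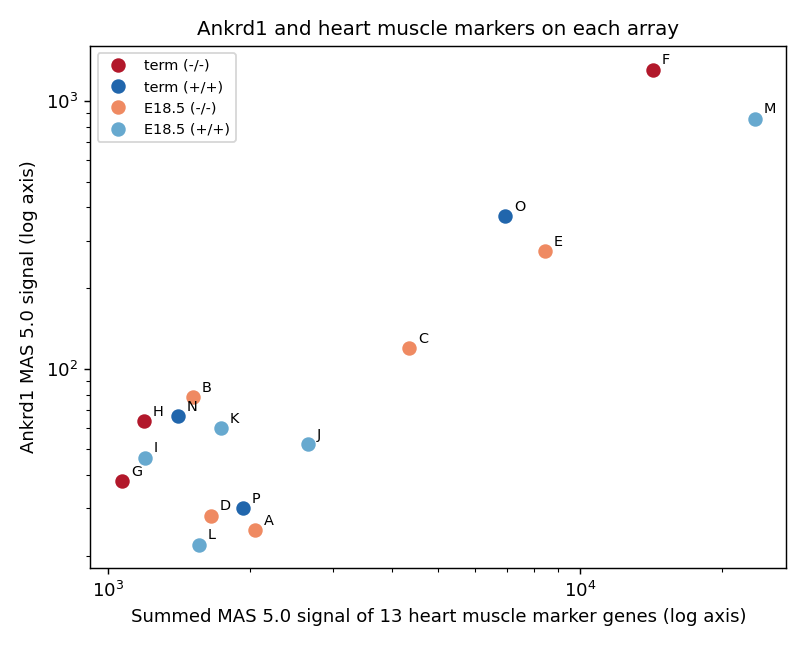
Ankrd1 signal against the summed signal of 13 heart muscle marker genes on each of the 16 arrays, both on log axes, with each point named by its replicate letter and coloured by group. Replicates F, M, O and E, 1 of each group, stand at the upper right, with Ankrd1 signals of 274.9 to 1309.7.

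The members can be set beside all probe sets on the array. Their groups did not overlap between the genotypes at term for 1 of 6 probe sets, Ccn1, which was lower in (-/-), where 1.94% of the 5885 probe sets above the filter were lower in the same way. At E18.5 this held for none of the 6, of which 5 passed the filter, against 0.476% of 5879. From E18.5 to term 2 of 6 member probe sets lay wholly higher in (-/-) lungs, against 15.9% of 6193, and 3 of 6 in (+/+) lungs, against 12.8% of 6145. The rule chose the members with these signals in view, so nothing is read from those counts. The median log2 difference over the 6 member probe sets was -0.16 at term and -0.17 at E18.5 between the genotypes, against 0.01 and 0.04 over all probe sets. The median change from E18.5 to term was 0.99 in (-/-) and 0.80 in (+/+) lungs, against -0.06 and -0.04. Nothing is read from these medians either, since they rest on the signals the rule used. Edn1 enters them by 2 probe sets, and the E18.5 genotype median holds Ccn1, which did not pass the filter. These comparisons share arrays, since each group enters 1 comparison of genotypes and 1 of times.

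**Figure D3:**
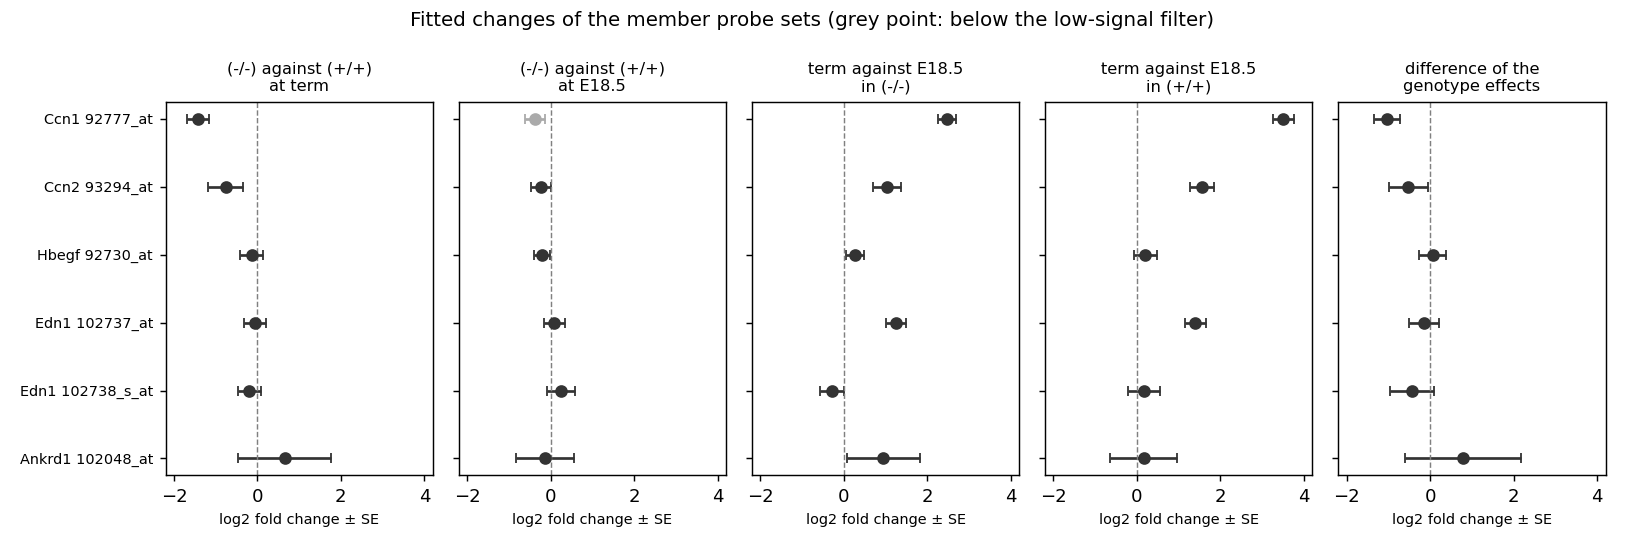
Fitted log2 fold change of (signal + 16) with its standard error for the 6 member probe sets, for (-/-) against (+/+) at each time, term against E18.5 in each genotype, and the difference of the genotype effects. The Ccn1 point stands at -1.42 between the genotypes at term and at 2.47 and 3.51 over time, and the wide bars belong to Ankrd1.

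The 5 probe sets whose log2 signal was most like that of Ccn1 over the 16 arrays, of 5865 compared, were those of Fos, Nr4a1, Grk5, Ier2 and Dnajb9, with Pearson correlations of 0.967, 0.955, 0.946, 0.946 and 0.943. The Spearman correlations of the same pairs were 0.729 to 0.829, and much of the likeness lies between the groups, since the correlation of the deviations from the group means was 0.298 for Fos, 0.326 for Nr4a1 and 0.467 for Ier2, and -0.225 for Grk5. Fos, a subunit of AP-1, averaged 892.3 ± 672.6 in term (-/-), 2336.5 ± 132.3 in term (+/+), 56.8 ± 21.2 in E18.5 (-/-) and 58.6 ± 22.1 in E18.5 (+/+) lungs (SD). For Ccn2 the closest were Gas1, Cfap20 and Chpt1, at 0.917, 0.905 and 0.903. Gas1, which encodes a membrane protein of growth-arrested cells, also kept a correlation of 0.893 with Ccn2 in the deviations from the group means. For Edn1 on 102737_at the closest were Vegfa, Ap3d1 and Atp11a, at 0.947, 0.935 and 0.914, and Vegfa, an endothelial growth factor, averaged 428.9 ± 103.1 in term (-/-), 529.9 ± 210.1 in term (+/+), 128.5 ± 37.6 in E18.5 (-/-) and 143.5 ± 81.5 in E18.5 (+/+) lungs (SD). For Hbegf no correlation exceeded 0.726. Among the members themselves, the log2 signals of Ccn1 and Ccn2 had a correlation of 0.81 over the 16 arrays and of -0.25 once the group means were taken off, and Ccn1 with Edn1 on 102737_at gave 0.85 and -0.02.

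Genes of the pathways around the members were taken from 6 lists, which hold 122 genes on the array besides the members, and were tested with limma, with p-values adjusted over all probe sets above the filter. Between the genotypes none passed, of 80 tested at term and of 76 at E18.5, where the fits called 0% and 0.034% of all probe sets. The difference of the genotype effect between the times was called for none of 84, against 0% of all 6458. Over time more of them passed, 35 of 83 in (-/-) lungs, with 28 higher and 7 lower at term, and 29 of 81 in (+/+) lungs, with 26 higher and 3 lower. Of all probe sets, 26.7% were called in (-/-) and 18.6% in (+/+) lungs. Without replicate N the (+/+) count was 15, and the share called of all probe sets was 5.47%. Without the 4 arrays rich in heart muscle signal the counts were 24 in (-/-) and 18 in (+/+) lungs, against 12.3% and 7.96% of all probe sets.

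The immediate early genes of serum and stretch, transcription factors and signalling enzymes known to be switched on within minutes, as Ccn1 is, in serum-stimulated cells, gave more of these calls than any other of the 6 lists. In (-/-) lungs 15 of 21 tested were higher at term than at E18.5 and none lower, and in (+/+) lungs 14 of 22 were higher and none lower, with median log2 changes of 1.17 in (-/-) and 1.84 in (+/+) lungs. Of all probe sets, 13.8% were called higher in (-/-) and 10.6% in (+/+) lungs. Some of the called genes passed the filter only through their term group. In (-/-) lungs the E18.5 means of Nr4a1, Klf2 and Plaur, 27.5, 8.16 and 31.4, lay under the filter level. In (+/+) lungs those of Klf2, Plaur (28.2) and Egr1 (41.8) did. The filter used medians, and the E18.5 median of Nr4a1 in (+/+) lungs, 44, also lay under the level of 52.5. Such genes could hardly be called lower, and the pseudocount sets part of the size of their changes. The E18.5 means of Fos and Dusp1 lay above the level in both genotypes. Fos was higher by 3.41 ± 0.41 in (-/-) lungs (adjusted p = 0.000324, limma) and by 5.03 ± 0.28 in (+/+) lungs (adjusted p = 3.46e-08). Dusp1, a phosphatase that turns off MAP kinases, was higher by 2.84 ± 0.28 in (-/-) lungs (adjusted p = 0.000145, limma) and by 3.76 ± 0.28 in (+/+) lungs (adjusted p = 1.09e-06). At term 18 of the 22 tested immediate early genes had negative differences between (-/-) and (+/+) lungs, with a median of -0.42, and 5 were lower at an unadjusted p under 0.05, but none passed the adjusted limma test. Of all probe sets, 47.3% had negative differences and 0.595% were lower at an unadjusted p under 0.05. Some of these genes were singled out by the study in these same lungs, so that count is no independent evidence of its direction. Fos had signals of 328.2, 1636.7 and 712.1 in term (-/-) against 2283.4, 2487.1 and 2239 in term (+/+) lungs, a difference of -1.66 ± 0.47 (unadjusted p = 0.00543, adjusted p = 1 in limma). Egr1, a zinc finger factor, had 30.9, 116.7 and 43.5 in term (-/-) against 242.5, 262.5 and 174.5 in term (+/+) lungs, a difference of -1.74 ± 0.36 (adjusted p = 1, limma). The genotypes did not overlap for either gene, as for Ccn1. At E18.5 the median difference of this list was 0.06 over 17 genes tested.

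Of the YAP, TAZ and TEAD list, which holds the factors thought to act on the Ccn1, Ccn2 and Ankrd1 promoters, 5 of 13 tested genes were higher and 2 lower at term than at E18.5 in (-/-) lungs, and 4 of 13 were higher in (+/+) lungs. Of all probe sets, 13.8% were called higher in (-/-) lungs, 803 of 6193 were called lower there, and 10.6% were called higher in (+/+) lungs. Without replicate F 2 were higher and none lower in (-/-) lungs, where 8.14% of all probe sets were called higher and 6.35% lower. Without replicate N 2 were higher in (+/+) lungs, where 3.6% of all probe sets were. Calls thus fell over the whole array and not only in this list. Tissue factor (F3), the starter of blood clotting, was higher by 1.85 ± 0.29 (adjusted p = 0.00115, limma) in (-/-) and by 2.69 ± 0.36 (adjusted p = 0.000287) in (+/+) lungs. Igfbp3, a carrier of insulin-like growth factors, was higher by 1.38 ± 0.34 in (-/-) and 1.59 ± 0.31 in (+/+) lungs. Gadd45a, a stress-induced growth arrest gene, was higher by 1.33 ± 0.24 in (-/-) and 1.45 ± 0.33 in (+/+) lungs. The E18.5 medians of Gadd45a, 47.3 in (-/-) and 43.5 in (+/+) lungs, lay under the filter levels of 50.1 and 52.5. Gadd45a thus passed the filter only through its term groups and could hardly be called lower. Yap1 itself was higher by 0.72 ± 0.21 in (-/-) and by 0.90 ± 0.28 in (+/+) lungs, while Tead4 and Ptpn14 were lower in (-/-) lungs by limma, at -0.70 ± 0.19 and -0.69 ± 0.21. In (-/-) lungs the calls of Igfbp3 and Tead4 were lost without F. The (-/-) call of Yap1 was lost without F, G or A, and that of Ptpn14 without F, G, H or A. In (+/+) lungs the call of Gadd45a was lost without N, and that of Yap1 without N, O, P, I, J or L. Between the genotypes at term 9 of 12 tested genes of this list had negative differences, with a median of -0.09, but without the (+/+) replicate N only 5 of 12 did, with a median of 0.03, and without the 4 heart-rich arrays 13 of 13 did, with a median of -0.28, so the count of negative differences turned on single arrays. F3 had -0.71 ± 0.34 (adjusted p = 1, limma).

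**Figure D4:**
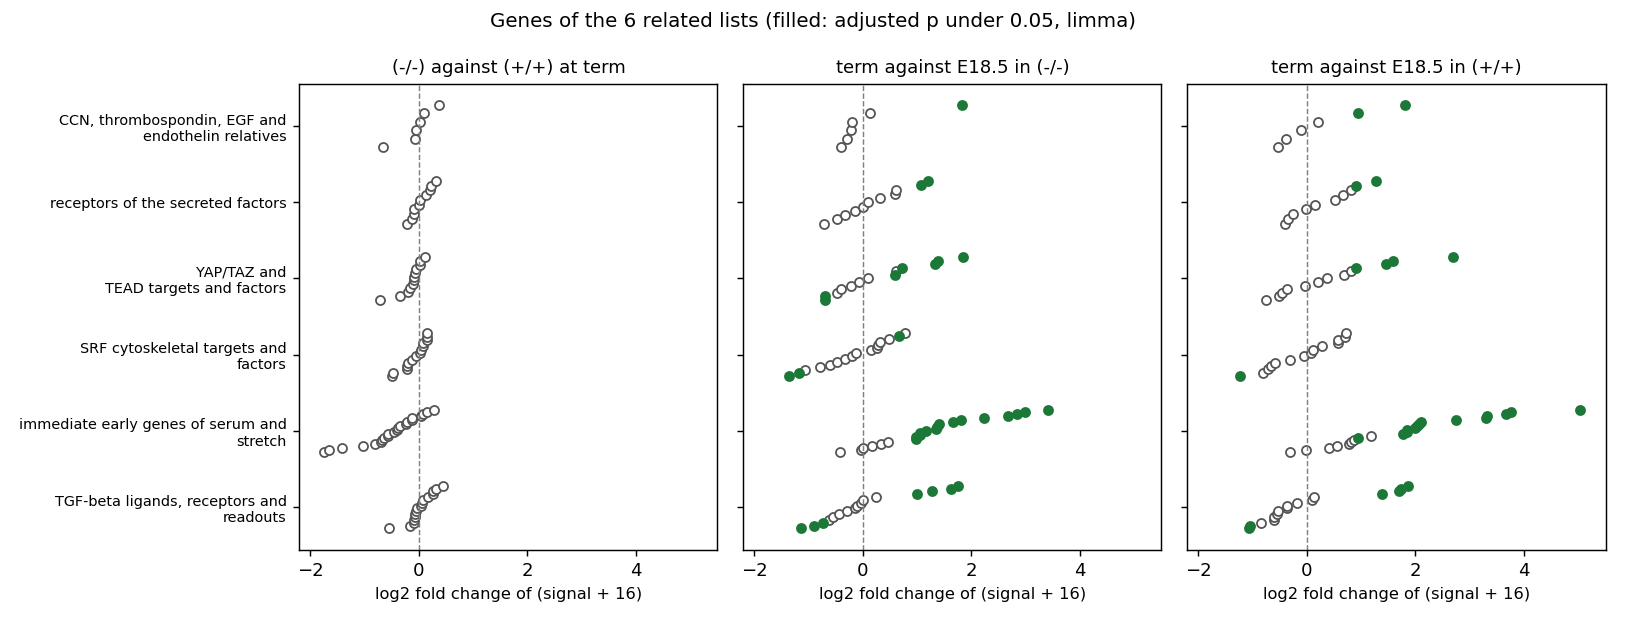
Log2 fold change of (signal + 16) of each tested gene of the 6 related lists, 1 row of points per list, for (-/-) against (+/+) at term and for term against E18.5 in (-/-) and in (+/+) lungs. Filled points have an adjusted p under 0.05 in limma, and none is filled between the genotypes, while the immediate early row holds 15 and 14 filled points over time.

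SRF targets of the cytoskeleton were called in both directions in (-/-) lungs. In (-/-) lungs 1 of 16 tested was higher at term, Tpm4 (0.66 ± 0.21), and 2 were lower, the smooth muscle actin Actg2 (-1.35 ± 0.25) and non-muscle myosin Myh9 (-1.18 ± 0.22), where 13.8% of all probe sets were called higher and 803 of 6193 lower. Tpm4 was lost without replicate F, G, C, D or E. In (+/+) lungs Myh9 was lower (-1.23 ± 0.35), a call lost without N, O or L, and none of the 14 tested was higher. Of all probe sets, 10.6% were called higher and 7.99% lower there. No result about SRF targets is read from these counts. Among receptors of the secreted members, the CCN receptor subunit Itgav was higher at term in (-/-) lungs (1.21 ± 0.19, adjusted p = 0.00132 in limma), the thrombospondin receptor Cd47 in both genotypes (1.08 ± 0.20 in (-/-) and 1.28 ± 0.37 in (+/+) lungs) and the integrin subunit Itga6 in (+/+) lungs (0.91 ± 0.30), of 11 tested in (-/-) and 10 in (+/+) lungs. Both (+/+) calls, of Cd47 and Itga6, were lost without N, O or J, and that of Itga6 also without P, I, K or L. Here 2 of 10 is near the 18.6% called of all probe sets. In (-/-) lungs 2 of 11 receptors were called, where 26.7% of all probe sets were, so no result about receptors is read from these counts. Of the relatives of the members, adrenomedullin (Adm), a vasodilator, was higher at term by 1.83 ± 0.21 in (-/-) and by 1.80 ± 0.50 in (+/+) lungs. The E18.5 means of Adm, 43.9 in (-/-) and 39.8 in (+/+) lungs, lay under the filter level, so the pseudocount sets part of this size. Ccn3, a further CCN protein, was higher in (+/+) lungs by 0.95 ± 0.27 (adjusted p = 0.0258, limma). Without replicate O neither Adm nor Ccn3 passed in (+/+) lungs, with adjusted p up to 0.155 and 0.149 over the arrays left out. Ccn3 had 165.9, 136.2 and 98.8 in term (-/-) against 239.8, 305.8 and 132.8 in term (+/+) lungs, which overlap, and its genotype difference of -0.65 ± 0.32 did not pass (adjusted p = 1).

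Genes of the TGF-β list, whose ligands induce Ccn2, were called in both directions. Tgfb1, Smad4, Smad7 and Id1 were higher at term than at E18.5 in both genotypes by limma, with Tgfb1 at 1.62 ± 0.38 in (-/-) and 1.87 ± 0.37 in (+/+) lungs and the inhibitor Smad7 at 1.27 ± 0.20 in (-/-) and 1.38 ± 0.32 in (+/+) lungs. The E18.5 means of Tgfb1, 38.1 in (-/-) and 19 in (+/+) lungs, lay under the filter level. The size of its change is thus set in part by the pseudocount. The matrix genes Col1a2, Eln and Bgn were lower in (-/-) lungs, with Col1a2 at -1.14 ± 0.25. Col1a2 (-1.07 ± 0.31) and Tgfbi (-1.04 ± 0.25) were lower in (+/+) lungs. Out of 16 tested in each genotype, 4 were higher and 3 lower in (-/-) lungs, and 4 higher and 2 lower in (+/+) lungs. Of all probe sets, 13.8% were called higher and 803 of 6193 lower in (-/-) lungs. In (+/+) lungs 10.6% were called higher and 491 of 6145 lower. No result about the list as a whole is read from these counts. In (+/+) lungs only Smad4 passed without replicate N, 1 higher and none lower. In that fit 3.6% of all probe sets were called higher and 1.87% lower. In (-/-) lungs Eln was lost without F, H or C, and Bgn without F, H, A, C or E. Whether any of these TGF-β list changes differs between the genotypes was tested by the interaction, which called none of the 16.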

How the data were processed

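Whole lung RNA of 16 mice was measured, 1 array each. The authors used Microarray Suite 5.0 to reduce the probe pairs of each probe set to 1 background-corrected signal intensity and then scaled the arrays. The deposited intensities are linear, from 0 to 29523.9, over 12488 probe sets. The detection p-values were not used here. Groups came from the labels. Probe sets were named through the platform annotation, with symbols updated through GRCm38.p6, and 10833 had 1 symbol and 396 several. Signals were tested as log2(signal + 16) with limma 3.58.1 (lmFit, eBayes with trend, Benjamini-Hochberg over all probe sets tested) in R 4.3.3, each fit holding the groups compared. A probe set was tested where the median of a group exceeded a level of 47.7 to 53.4, set in each fit so that the share of signals above it equalled the average share of detected probe sets in the paper. A gene on a list was read from its probe set with the highest mean. The scripts were tested on simulated data. Members and lists were chosen with earlier results of these data known. Named genes were all member probe sets, the 3 genes of lowest p per list and comparison, and the probe sets most correlated with each member. List genes named beyond these (Klf2, Plaur, Yap1, Tead4, Ptpn14, Eln and Bgn) were chosen after their values were seen. The number of arrays, 3 or 5 a group, limits the precision. Batch, litter and sex are not given in the sources used here. The highest signal on an array was 6159.4 to 10575.8 at term and 12978.7 to 29523.9 at E18.5, without overlap. Its part in the changes over time was not tested beyond the scaling alternatives. With quantile normalization 34 pathway genes were called over time in (-/-) and 27 in (+/+) lungs. Of all probe sets, 1555 of 6214 and 1048 of 6266 were called in these fits. Alternatives covered scaling, pseudocount, filter, model, the methods' t-test, RNA integrity and leaving out arrays.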

Additional observations from a re-analysis of the deposited data

Results flagged for a closer look

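In 2 cases 1 lung stood far from the other 4 of its group by Dixon's criterion. Edn1 on 102737_at was 107.9 on E18.5 (-/-) replicate C, against 44.3 to 58.5 on the other 4 arrays. Ankrd1 was 859.4 on E18.5 (+/+) replicate M, against 22 to 60 on the other 4, and this array had the highest heart muscle marker sum of all, 23503.1. Chance alone gives such a gap in about 1 in 20 groups, and the 3-array groups at term were not examined this way.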

How the results depend on the processing

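The term difference of Ccn1 between the genotypes stayed between -1.53 and -1.21 when 1 array at a time was left out and between -1.49 and -1.24 under other planned settings, and it was -1.14 without the 4 arrays rich in heart muscle signal, an alternative chosen after seeing the data, under which the difference of the genotype effects was -0.74. As a log2 ratio of mean signals the E18.5 difference was -0.62. The change over time moved with the pseudocount. In (-/-) lungs it was 1.60 with a pseudocount of 64, 3.13 with none and 3.15 as a ratio of means, and in (+/+) lungs 2.66, 4.04 and 3.99. No sign of Ccn1 or Ccn2 turned in any alternative, while 13 of the 30 member values turned sign in at least 1, all of them values of Ankrd1, Hbegf or Edn1. Pathway genes called over time numbered 22 in (-/-) and 10 in (+/+) lungs with the methods' t-test after Benjamini-Hochberg adjustment. Of all probe sets, that test called 1034 of 6193 and 350 of 6145. When 1 array was left out, the counts were 25 to 38 in (-/-) and 15 to 31 in (+/+) lungs. The shares of all probe sets were then 14.5% to 28.5% and 5.47% to 20.5%. Without the 4 heart-rich arrays 18 pathway genes were called in (+/+) lungs, against 7.96% of all probe sets. Between the genotypes the count was 0 under every alternative run. At an unadjusted p under 0.05 limma gave 40 of all probe sets at term and the methods' t-test 79, and the interaction 95. No paired analysis was possible because the labels give each array a letter of its own and no number shared between groups. Low signals limit Ccn1 at E18.5, and 3 arrays a group limit the comparisons at term.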
